A study of Homo sapiens with 4 samples.

Results

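The 55 genes described here encode enzymes that conjugate foreign compounds and endogenous metabolites or that oxidise, reduce or hydrolyse them. They were taken by gene symbol from the 12153 genes of the deposited count table, with each gene read from its transcript row with most counts. They comprise 10 UDP-glucuronosyltransferases (UGT), 11 glutathione S-transferases (GST and MGST), 8 sulfotransferases (SULT), 8 aldo-keto reductases (AKR), 4 alcohol dehydrogenases (ADH), 8 aldehyde dehydrogenases (ALDH), 3 epoxide hydrolases (EPHX), 2 flavin-containing monooxygenases (FMO) and 1 carboxylesterase (CES). PLC/PRF/5, an established human hepatocellular carcinoma line, was grown in high-glucose DMEM and profiled by poly(A) RNA sequencing as USP22 knockdown cells (shUSP22, 2 libraries) and control cells (NC, 2 libraries). The shRNA was delivered by lentivirus, and all 4 libraries came from cells kept at 1% O2 and 5% CO2 for 48 h, so the comparison is between knockdown and control within hypoxia and no normoxic library was analysed here. USP22 is the ubiquitin-specific protease of the SAGA coactivator complex. The labels give neither the shRNA sequence nor the number of hairpins, and they do not say whether the libraries of a group were separate cultures. The p-values therefore measure the spread between libraries, which may be technical.

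In hepatocytes these families act on lipophilic molecules in turn. Aldo-keto reductases and alcohol dehydrogenases interconvert carbonyls and alcohols, aldehyde dehydrogenases oxidise aldehydes to acids, and epoxide hydrolases open epoxides. Transferases then attach glucuronic acid, glutathione or sulfate, which makes the product water-soluble for export. Many of the genes lie in clusters of close copies, and several belong to the mature hepatocyte programme, in which HNF1 and HNF4 factors, nuclear receptors and NRF2 are known regulators.

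To show what the copies share and where they differ, the 250 bases before the RefSeq transcription start are given. They are from GRCh38.p14 and are printed 5′ to 3′ along the gene's strand. They cover UGT1A1, the member with the smallest adjusted p, and 3 pairs of copies, each pair from the same gene cluster. Capitals mark matches, on either strand, to the antioxidant response element TGANNNNGC, the hypoxia response element ACGTG, or the HNF1 site GTTAAT, a single arm of that factor's palindrome. A palindromic CACGTG matches ACGTG on both strands. The windows are UGT1A1 (chr2:233760020-233760269, plus strand), UGT2B10 (chr4:68815744-68815993, plus strand), UGT2B11 (chr4:69214749-69214998, minus strand), AKR1C1 (chr10:4963165-4963414, plus strand), AKR1C2 (chr10:5003858-5004107, minus strand), ADH1A (chr4:99290986-99291235, minus strand) and ADH1C (chr4:99352747-99352996, minus strand).
UGT1A1: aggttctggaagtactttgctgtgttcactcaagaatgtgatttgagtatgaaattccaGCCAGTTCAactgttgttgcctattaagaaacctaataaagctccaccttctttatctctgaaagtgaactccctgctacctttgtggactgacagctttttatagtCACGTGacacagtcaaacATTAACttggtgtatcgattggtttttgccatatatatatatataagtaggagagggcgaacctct
UGT2B10: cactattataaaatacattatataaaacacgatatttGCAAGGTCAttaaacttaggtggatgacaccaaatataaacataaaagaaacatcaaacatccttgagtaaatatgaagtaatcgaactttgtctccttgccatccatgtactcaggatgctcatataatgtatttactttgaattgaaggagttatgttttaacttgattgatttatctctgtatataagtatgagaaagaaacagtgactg
UGT2B11: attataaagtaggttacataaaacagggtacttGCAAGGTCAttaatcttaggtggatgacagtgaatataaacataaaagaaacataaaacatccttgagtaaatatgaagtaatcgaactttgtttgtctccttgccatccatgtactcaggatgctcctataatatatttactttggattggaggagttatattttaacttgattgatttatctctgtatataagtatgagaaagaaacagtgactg
AKR1C1: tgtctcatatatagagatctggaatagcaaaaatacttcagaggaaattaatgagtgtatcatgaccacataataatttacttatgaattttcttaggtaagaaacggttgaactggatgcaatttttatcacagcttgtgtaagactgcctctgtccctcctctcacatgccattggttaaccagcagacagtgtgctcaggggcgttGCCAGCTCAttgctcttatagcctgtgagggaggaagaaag
AKR1C2: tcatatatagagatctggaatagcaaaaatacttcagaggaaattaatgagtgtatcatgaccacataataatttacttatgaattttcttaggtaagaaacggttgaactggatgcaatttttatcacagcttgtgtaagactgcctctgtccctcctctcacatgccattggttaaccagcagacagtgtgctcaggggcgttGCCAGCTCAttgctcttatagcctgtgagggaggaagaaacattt
ADH1A: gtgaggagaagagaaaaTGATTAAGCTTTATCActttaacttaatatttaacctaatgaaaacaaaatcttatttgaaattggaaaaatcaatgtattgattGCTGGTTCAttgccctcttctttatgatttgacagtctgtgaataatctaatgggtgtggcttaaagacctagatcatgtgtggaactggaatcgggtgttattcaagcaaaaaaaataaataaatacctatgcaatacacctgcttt
ADH1C: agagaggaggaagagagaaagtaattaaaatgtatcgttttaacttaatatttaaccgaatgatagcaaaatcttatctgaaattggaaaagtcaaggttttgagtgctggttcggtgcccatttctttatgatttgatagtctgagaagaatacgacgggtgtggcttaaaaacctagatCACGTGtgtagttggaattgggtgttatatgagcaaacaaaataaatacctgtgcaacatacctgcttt

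UGT1A1 held 1 antioxidant match, 1 CACGTG and 1 HNF1 site in this window. AKR1C1 and AKR1C2 were identical at 96.5% of aligned positions, and both held the same antioxidant match, spelled GCCAGCTCA on the printed strand. UGT2B10 and UGT2B11 were identical at 90.2% of positions and shared GCAAGGTCA. ADH1A and ADH1C were identical at 80.7% of positions, but the motif matches differed: ADH1A held 3 antioxidant matches, 2 of them overlapping, and ADH1C held 1 CACGTG. Across 27305 RefSeq promoters the antioxidant element was present in 35.4%, ACGTG in 18.7%, and the HNF1 site in 6.22%. Of the 45 members with a promoter entry, 21 held the antioxidant element (46.7%), 9 held ACGTG and 8 held the HNF1 site (17.8%). The xenobiotic response element GCGTG, which shares its last 4 letters with ACGTG, was present in 31.9% of all promoters and in 11 of the 45 (24.4%). Of the 15 members with an entry that were called higher in the knockdown, 7 held the antioxidant element, 4 held ACGTG, 2 held GCGTG and 4 held the HNF1 site (GSTA1, SULT1E1, UGT1A1 and UGT1A3). A match describes letters in a window and no binding.

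The libraries held 15027209 and 17194929 counts in USP22 knockdown and 15621574 and 16536639 in control. USP22 itself had 360 and 447 CPM (counts scaled by library size with TMM factors) in knockdown, against 2937 and 2573 CPM in control, a log2 fold change of -2.77 ± 0.17 (SE; edgeR quasi-likelihood test, Benjamini-Hochberg adjusted p = 1.36e-06). Hepatocyte lineage markers were present in all libraries: ALB had 548 and 734 CPM in knockdown, against 656 and 795 CPM in control (adjusted p = 0.538). Of 14 tested hepatocyte markers, 7 were higher in knockdown and 1 was lower (median log2 fold change 0.60). The higher ones were AFP, APOA2, APOB, APOH, FGA, FGB and FGG, and the lower one was AHSG. The summed level of the whole marker list was 48868 and 40274 CPM in knockdown, against 32560 and 31323 CPM in control. Most of that gap was APOB, with 27525 and 16630 CPM in knockdown, against 11626 and 8796 CPM in control. Without APOB the list summed to 21343 and 23644 CPM in knockdown, against 20934 and 22526 CPM in control. Most of this sum was TF, with 14063 and 15353 CPM in knockdown, against 16362 and 17025 CPM in control. The sum without APOB therefore says little about the other markers. Of 15 listed markers of other cell types, the 11 analysed here summed to 250 and 149 CPM in knockdown, against 194 and 256 CPM in control. Of 9 tested, PECAM1, an endothelial marker, was higher (log2 fold change 1.02), and the epithelial markers KRT7 and EPCAM were lower (-1.54 and -2.25). VWF, also endothelial and too low to test, had 0 and 2 counts in knockdown, against 7 and 9 in control. KRT19, also epithelial, was not called (0.37, adjusted p = 0.425), and its groups overlapped. Of the fibroblast markers, COL1A2 had 0 counts in both knockdown libraries, against 1 and 53 in control, while the groups overlapped for COL1A1, LUM and PDGFRB. The part of these markers in the enzyme results was not tested.

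Of the 55 members, 49 passed the filter on low counts, and 17 of these were higher and 1 was lower in USP22 knockdown at an adjusted p under 0.05. Over all 12337 tested transcripts 8.49% were higher and 10.2% were lower, and with 1 row per gene the shares were 9.08% and 11.1%. The members' share of higher calls was 34.7% of those tested. The members were chosen with earlier results of these data known, so the difference between these shares was not tested. All 55 members counted, both knockdown libraries lay above both control libraries for 25, below for 8, and the groups overlapped for 22. Across the 12153 genes the groups did not overlap in 59.1%, with the knockdown above in 28.1% and below in 31.0%. The median log2 fold change of the tested members was 0.55, against 0.00074 over all tested transcripts, and 36 fold changes were positive and 13 negative. ADH1C, ADH6, GSTA1, UGT2B10 and UGT2B15 passed the filter only through their knockdown libraries, and ALDH18A1 and EPHX4 only through their control libraries. All of these but UGT2B15 and ALDH18A1 are among the called members. In bulk RNA, fewer cells expressing a gene and less RNA per cell cannot be told apart.

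**Figure D1:**
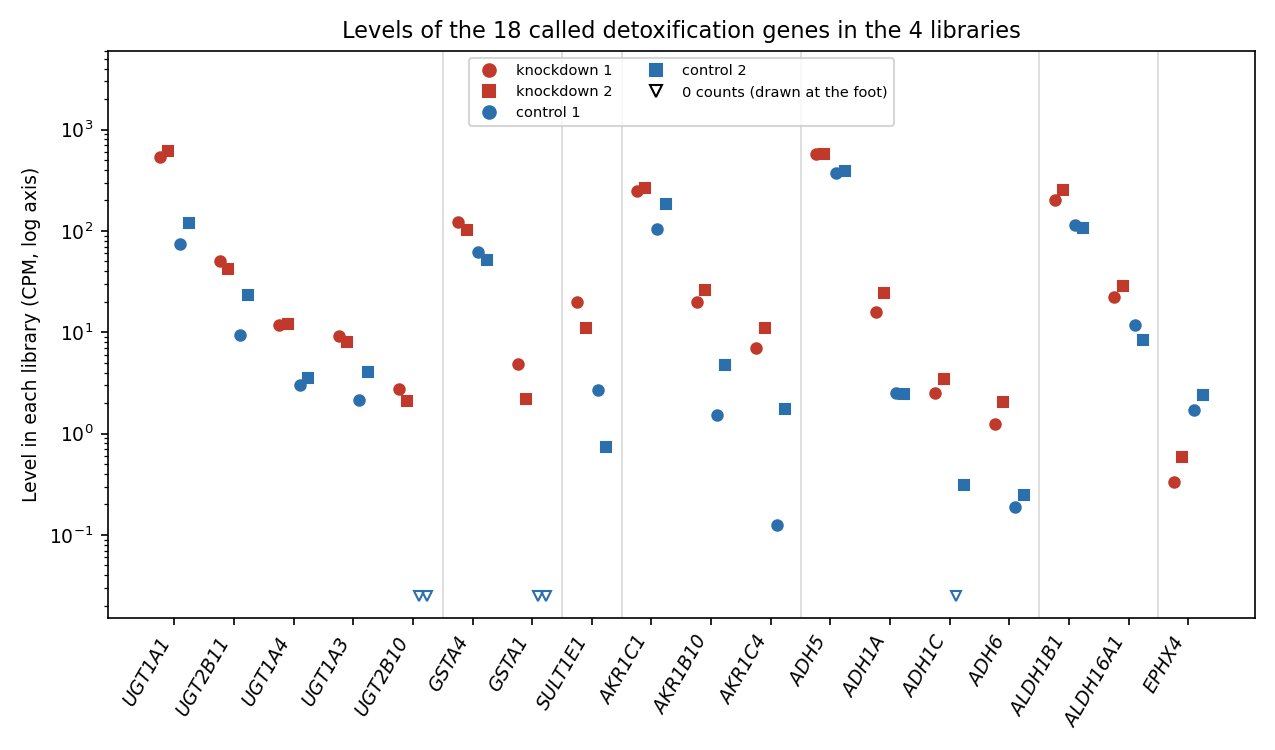
Levels in CPM on a log axis of the 18 called members in each of the 4 libraries, knockdown in red and control in blue, with the families separated by lines and libraries at 0 counts drawn as open triangles at the foot. The knockdown libraries lie above the control libraries for 17 genes and below them for EPHX4.

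**Figure D2:**
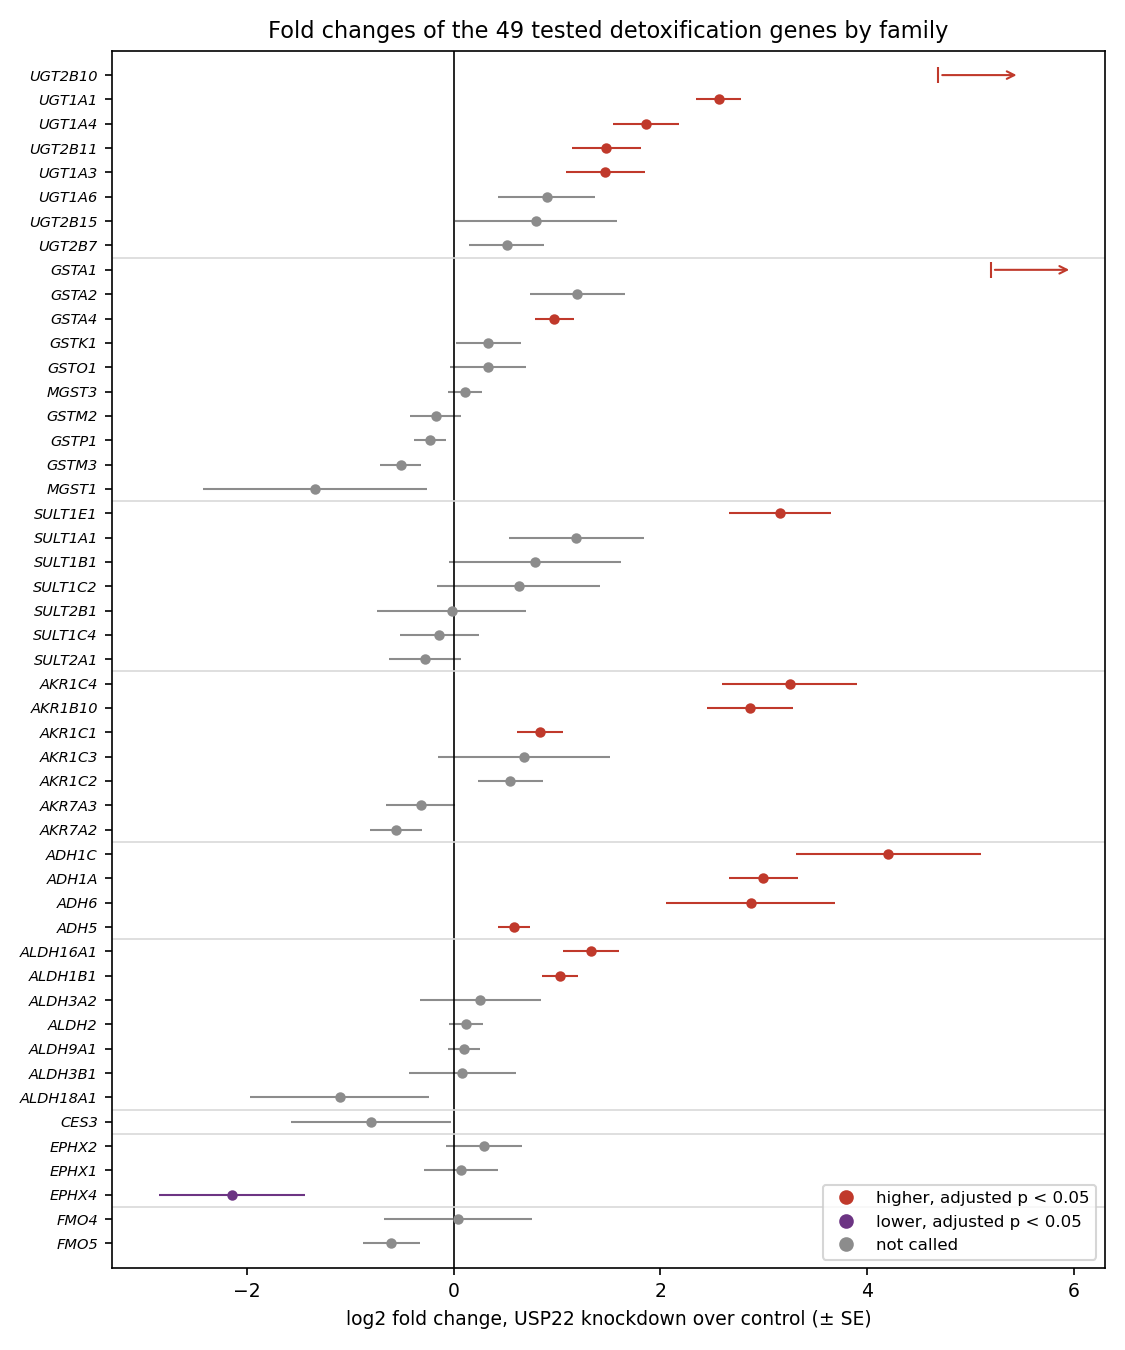
Log2 fold changes of USP22 knockdown over control with SE for the 49 tested members by family, from edgeR. GSTA1 and UGT2B10, at 0 counts in both control libraries, are drawn as arrows from their lower bound. All 8 UGT and all 4 ADH values lie above 0, whereas GST, SULT, AKR, ALDH and EPHX values fall on both sides. Of the UGT and ADH genes, UGT2B10, UGT2B15, ADH1C and ADH6 passed the filter only through their knockdown libraries.

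Glucuronidation genes included the abundant member with the largest change. Of 10 UGT genes, 8 were tested, 5 were higher, none was lower, and knockdown lay above control for 8. The other 3 tested genes, UGT1A6, UGT2B7 and UGT2B15, had positive log2 fold changes that did not pass the test. UGT2B10 and UGT2B15 passed the filter only through their knockdown libraries. UGT1A1, the bilirubin-conjugating enzyme, had 543 and 609 CPM in knockdown, against 74.4 and 120 CPM in control. The groups were far apart relative to the gap within either, and the level was 5.92-fold higher (log2 fold change 2.57 ± 0.22, adjusted p = 8.50e-06). UGT1A4, which glucuronidates amines, had 11.8 and 12.1 CPM in knockdown, against 3.03 and 3.52 CPM in control (log2 fold change 1.86 ± 0.32, adjusted p = 0.00159). UGT1A3 had 9.12 and 7.98 CPM in knockdown, against 2.15 and 4.02 CPM in control (log2 fold change 1.47 ± 0.38, adjusted p = 0.0169). The call rested on the lower control library: without control 1, UGT1A3 stood at 1.09 with an adjusted p of 0.0902, and without control 2 at 2.01. The UGT1A genes are alternative first exons joined to the same downstream exons. Between 60.5% and 75.6% of the 100-base windows of UGT1A1, UGT1A3 and UGT1A4 occurred in another UGT1A transcript, so their counts are uncertain as separate genes.

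In the UGT2B cluster, whose enzymes conjugate steroids, bile acids and drugs, both knockdown libraries lay above both control libraries for all 4 genes, and 2 passed the test. UGT2B11 had 49.98 and 41.8 CPM in knockdown, against 9.47 and 23.4 CPM in control (log2 fold change 1.48 ± 0.33, adjusted p = 0.00758). The control libraries of UGT2B11 differed from each other more than the knockdown libraries did. The log2 fold change of UGT2B11 was 0.97 without control 1 and 2.29 without control 2. UGT2B10, an amine-conjugating enzyme, had 42 and 36 counts in knockdown and 0 in both control libraries. Against a floor of 3 counts over the control group (0.0937 CPM), UGT2B10 was at least 25.8-fold higher (adjusted p = 0.00107). This floor, like the interval below, covers counting error only. UGT2B10 and UGT2B11 shared 6.60% and 9.30% of their windows with other UGT2B transcripts or pseudogenes.

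Of 11 glutathione transferase genes, 10 were tested, and 2, both of the alpha class, were higher. Of these 2, GSTA1 passed the filter only through its knockdown libraries. Glutathione transferases couple glutathione to electrophiles. GSTA4, which conjugates the lipid peroxidation product 4-hydroxynonenal, had 122 and 101 CPM in knockdown, against 62.0 and 51.8 CPM in control. The groups did not overlap, and the level was 1.96-fold higher (log2 fold change 0.97 ± 0.19, adjusted p = 0.00329). GSTA1, the main alpha-class transferase of adult liver, had 73 and 38 counts in knockdown and 0 in both control libraries, at least 36.7-fold higher against the same floor (adjusted p = 0.000506). Without knockdown 1 the bound for GSTA1 was 23.6-fold. GSTA1 shared 110 of its 920 windows with GSTA2. The third alpha-class member, GSTA2, named after its values were seen, had 5.69 and 4.25 CPM in knockdown, against 2.97 and 1.36 CPM in control (log2 fold change 1.196 ± 0.46, adjusted p = 0.0911).

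The abundant members of other classes did not pass the test. GSTP1, the pi-class enzyme and the member with the highest level per kilobase, had 1743 and 2197 CPM in knockdown, against 2169 and 2442 CPM in control. The groups overlapped, and the log2 fold change was -0.23 ± 0.16 (adjusted p = 0.351). MGST3, a membrane-bound glutathione transferase and peroxidase, had 173 and 195 CPM in knockdown, against 165 and 176 CPM in control (log2 fold change 0.11 ± 0.16, adjusted p = 0.694). Among mu-class genes, named after their values were seen, GSTM3 had 40.3 and 46.8 CPM in knockdown, against 56.6 and 67.5 CPM in control (log2 fold change -0.51 ± 0.20, adjusted p = 0.0938). GSTM4 was too low to test, with 6 and 16 counts in knockdown and 0 in both control libraries, at least 7.27-fold higher against the floor, a bound that was 4.23-fold without knockdown 2.

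Sulfation genes were low, and 1 of 7 tested was called. SULT1E1, the estrogen sulfotransferase, had 19.8 and 11.1 CPM in knockdown, against 2.71 and 0.742 CPM in control. Both groups spread widely, yet they did not overlap, and SULT1E1 was 8.93-fold higher (log2 fold change 3.16 ± 0.49, adjusted p = 0.000817). The log2 fold change was 4.37 without control 1 and 2.52 without control 2. SULT2A1, which sulfates dehydroepiandrosterone and bile acids, had 5.95 and 4.72 CPM in knockdown, against 7.51 and 5.38 CPM in control (log2 fold change -0.27 ± 0.35, adjusted p = 0.645). SULT1C4 had 6.48 and 5.12 CPM in knockdown, against 4.29 and 8.47 CPM in control, with overlapping groups (log2 fold change -0.14 ± 0.38, adjusted p = 0.847).

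Of 8 aldo-keto reductase genes, 7 were tested and 3 were higher. AKR1B10, which reduces aldehydes and retinal, had 19.97 and 26.1 CPM in knockdown, against 1.52 and 4.76 CPM in control (log2 fold change 2.87 ± 0.42, adjusted p = 0.000488). The lowest knockdown library of AKR1B10 was well above the highest control library. Its log2 fold change was 2.28 without control 1 and 3.94 without control 2. AKR1C4, the liver 3-alpha-hydroxysteroid dehydrogenase, had 6.94 and 10.9 CPM in knockdown, against 0.126 and 1.73 CPM in control (log2 fold change 3.25 ± 0.65, adjusted p = 0.00407). The lower control value was 2 counts. The log2 fold change of AKR1C4 was 2.37 without control 1 and 6.08 without control 2, and DESeq2 gave an adjusted p of 0.112.

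AKR1C1, the 20-alpha-hydroxysteroid dehydrogenase, had 247 and 267 CPM in knockdown, against 104 and 184 CPM in control (log2 fold change 0.84 ± 0.23, adjusted p = 0.0204). The call rested on control 1: without it, the log2 fold change was 0.49, and without control 2 it was 1.32. AKR1C2, the 3-alpha-hydroxysteroid dehydrogenase with the near-identical promoter printed above, had 12.5 and 25.04 CPM in knockdown, against 13.3 and 12.4 CPM in control (log2 fold change 0.55 ± 0.32, adjusted p = 0.256). Only 1 knockdown library of AKR1C2 lay above the control libraries. AKR1C1 and AKR1C2 shared 17.4% and 8.51% of their windows with other AKR1C transcripts, so reads could be divided between them in ways the counting settings, not given in the sources used here, would decide. AKR7A2, an aldehyde reductase of the aflatoxin pathway, had 20.3 and 13.9 CPM in knockdown, against 25.8 and 24.4 CPM in control (log2 fold change -0.56 ± 0.25, adjusted p = 0.152).

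All 4 alcohol dehydrogenase genes were higher, but ADH1C and ADH6 passed the filter only through their knockdown libraries. ADH1A, a class I ethanol dehydrogenase, had 15.7 and 24.3 CPM in knockdown, against 2.53 and 2.47 CPM in control. The control libraries of ADH1A nearly coincided, and the level was 7.98-fold higher (log2 fold change 2.996 ± 0.33, adjusted p = 7.34e-05). ADH1C, the other class I gene in the set, had 2.51 and 3.49 CPM in knockdown, against 0 and 0.309 CPM in control (log2 fold change 4.20 ± 0.89, adjusted p = 0.00559). Its control level was 5 counts in all, and without control 1 the log2 fold change was 3.26. Without control 2 no control count was left. ADH6, a class V gene, had 1.26 and 2.04 CPM in knockdown, against 0.189 and 0.247 CPM in control (log2 fold change 2.87 ± 0.82, adjusted p = 0.0270). ADH6 lost its call without control 1 (adjusted p = 0.0699), knockdown 1 (0.0637) or knockdown 2 (0.358). ADH5, the glutathione-dependent formaldehyde dehydrogenase found in most tissues, had 576 and 573 CPM in knockdown, against 373 and 393 CPM in control. Both groups were tight, and ADH5 was 1.4999-fold higher (log2 fold change 0.58 ± 0.15, adjusted p = 0.0161). With 1 control library left out, the log2 fold change of ADH5 was 0.55 or 0.64, and ADH5 lost its call. The 4 ADH genes lie in the same cluster in the RefSeq gene order, in which other genes may lie between them.

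Of 8 aldehyde dehydrogenase genes, 7 were tested and 2 were higher. ALDH1B1, a mitochondrial enzyme that oxidises acetaldehyde, had 200 and 251 CPM in knockdown, against 113 and 108 CPM in control. The groups did not overlap, and the level was 2.04-fold higher (log2 fold change 1.03 ± 0.17, adjusted p = 0.00136). ALDH16A1 had 22.4 and 28.6 CPM in knockdown, against 11.9 and 8.47 CPM in control (log2 fold change 1.33 ± 0.27, adjusted p = 0.00450). ALDH2, the main mitochondrial acetaldehyde dehydrogenase, had 147 and 156 CPM in knockdown, against 146 and 133 CPM in control (log2 fold change 0.12 ± 0.16, adjusted p = 0.685). ALDH9A1, which oxidises aminobutyraldehyde, had 270 and 264 CPM in knockdown, against 253 and 247 CPM in control (log2 fold change 0.10 ± 0.16, adjusted p = 0.723). ALDH2 and ALDH9A1 moved by less than their standard errors. ALDH1L2, a mitochondrial folate enzyme named after its values were seen, was too low to test, with 1 and 1 counts in knockdown and 12 and 7 in control. The knockdown over control ratio of ALDH1L2 was 0.104 (exact 95% interval from counting 0.0118 to 0.432).

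None of the 6 genes for hydrolases and monooxygenases was higher, and 1 was lower. EPHX4, a little-studied epoxide hydrolase relative, passed the filter only through its control libraries. EPHX4 had 5 and 10 counts in knockdown, against 27 and 39 counts in control (log2 fold change -2.14 ± 0.70, adjusted p = 0.0490). This call was lost without control 2 (adjusted p = 0.202), without knockdown 1 (0.208) and without knockdown 2 (0.0874). EPHX1, the microsomal epoxide hydrolase, had 5.75 and 6.76 CPM in knockdown, against 4.55 and 7.36 CPM in control (adjusted p = 0.918). EPHX2, the soluble hydrolase of fatty acid epoxides, had 5.29 and 5.82 CPM in knockdown, against 5.49 and 3.59 CPM in control (adjusted p = 0.640). Neither pair of groups separated in these rows. The less abundant transcript row of EPHX1 lay above control in knockdown, with a log2 fold change of 0.57 (adjusted p = 0.338). Both EPHX1 rows summed gave 0.31 (adjusted p = 0.511). FMO5 had 22.5 and 14.4 CPM in knockdown, against 23.2 and 32.8 CPM in control (log2 fold change -0.60 ± 0.28, adjusted p = 0.152). The 2 less abundant transcript rows of FMO5 gave -0.02 and 0.44, and all 3 rows summed gave -0.20 (adjusted p = 0.571). FMO4 had 1.06 and 0.874 CPM in knockdown, against 0.821 and 1.05 CPM in control (adjusted p = 0.979). CES3, a carboxylesterase, had 0.529 and 0.757 CPM in knockdown, against 1.58 and 0.680 CPM in control (log2 fold change -0.80 ± 0.77, adjusted p = 0.529).

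**Figure D3:**
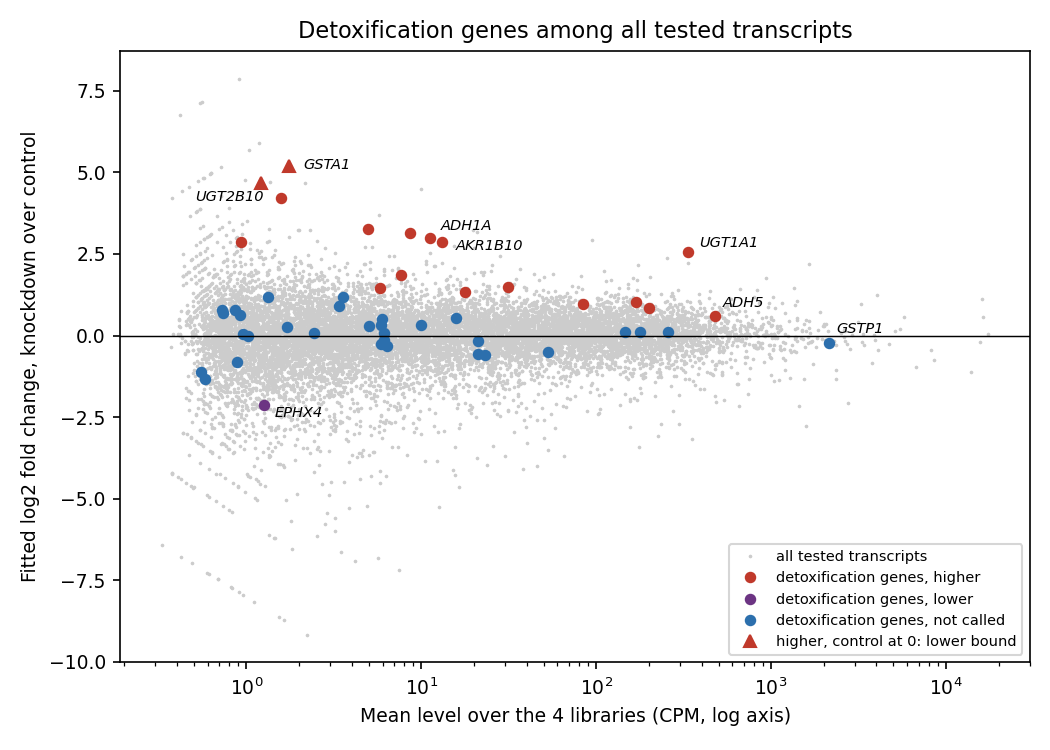
Fitted log2 fold change of USP22 knockdown over control against the mean level in CPM (log axis) for all tested transcripts in grey and the members in colour. Fitted values of grey points with a group at 0 depend on the prior count, and GSTA1 and UGT2B10 are triangles at their lower bounds. UGT1A1 is the called member of high level with the largest change, and GSTP1, at the highest level, lies near 0.

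Per kilobase of transcript, with lengths of the GENCODE release 29 models of the same accessions, UGT1A1 had 228 and 256 CPM per kb in knockdown, against 31.3 and 50.4 CPM per kb in control. ADH5 had 220 and 219 CPM per kb in knockdown, against 143 and 150 CPM per kb in control. The UGT1A1 level thus lay above that of ADH5 in both knockdown libraries, narrowly in knockdown 1, and below it in both control libraries. As 60.5% of the 100-base windows of UGT1A1 occurred in other UGT1A transcripts, its level per kilobase is uncertain. GSTP1 had 1814 and 2286 CPM per kb in knockdown, against 2257 and 2542 CPM per kb in control, above all 53 other members with a length in all 4 libraries.

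The 2 control libraries differed from each other for some members. Of 40 members with at least 10 counts in both control libraries, 10 (25.0%) were over 1.5-fold higher in control 2 and 7 (17.5%) over 1.5-fold higher in control 1. The shares over 11142 rows were 10.5% and 11.4%. UGT1A1, UGT1A3, UGT2B11, AKR1B10 and AKR1C1 were higher in control 2, and SULT1E1 was higher in control 1. AKR1C4, outside these 40 with 2 counts in control 1, was also higher in control 2. The log2 fold change of UGT1A1 was 2.27 without control 1 and 2.97 without control 2.

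**Figure D4:**
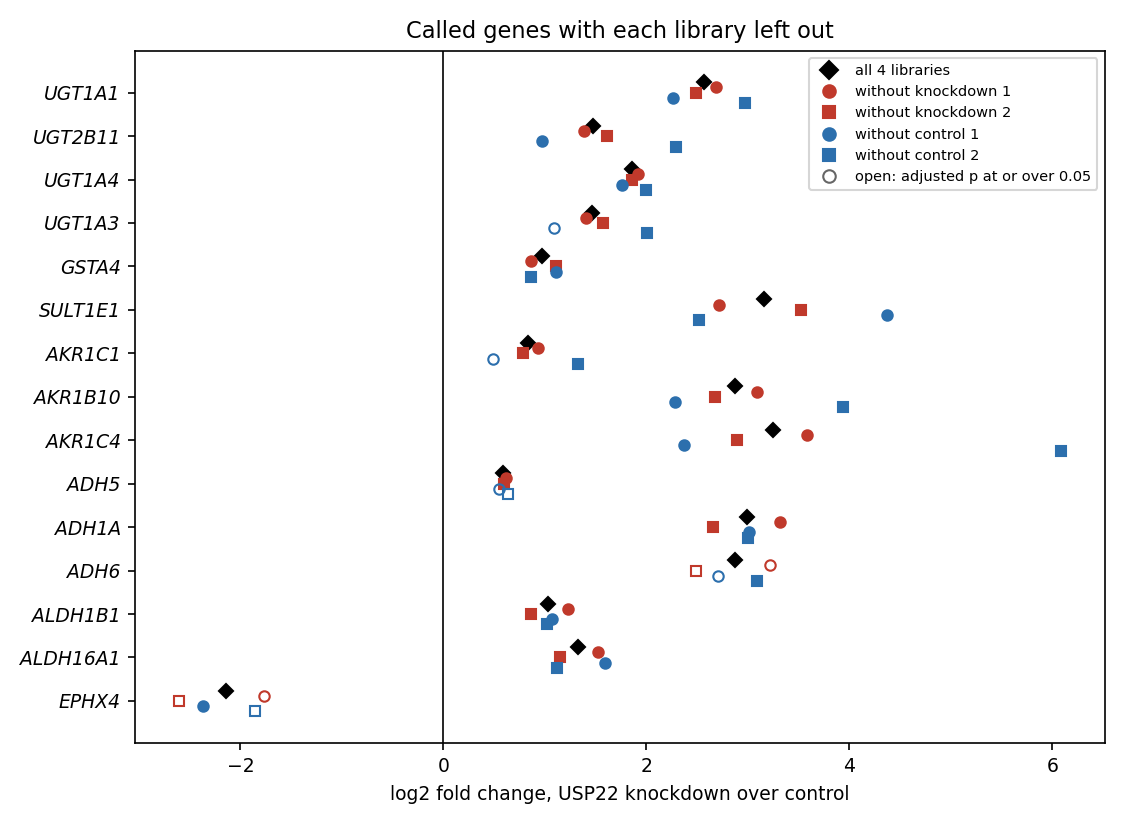
Log2 fold change of USP22 knockdown over control for 15 called members with all 4 libraries (black) and with each library left out in turn, where open symbols have an adjusted p at or over 0.05. GSTA1, UGT2B10 and ADH1C, with control libraries at 0, are not drawn. Every point stays on its side of 0, and leaving out a control library moves AKR1C4, SULT1E1, AKR1B10 and UGT2B11 most.

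Genes with several isoforms have several RefSeq accessions, of which a row holds 1. Of 26 members with 1 RefSeq mRNA accession, 23 were tested, and 13 were higher (56.5%) and 1 lower. Over all such genes 12.0% were higher and 16.3% lower. Of 29 members with several accessions, 26 were tested and 4 were higher (15.4%). Over all genes with several accessions 7.24% were higher and 7.25% lower. In the authors' deposited table, 15 of the 18 called members had a q under 0.05 with the same sign. The exceptions in the authors' deposited table were AKR1C1 (q = 0.121), AKR1C4 (q = 0.0909) and UGT2B11 (q = 0.0670).

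Other genes of the same pathways showed both directions. Of 29 tested genes for other conjugating and carbonyl-reducing enzymes, 5 were higher and 5 were lower (median log2 fold change -0.26). HNMT, the histamine methyltransferase, had 108 and 66.7 CPM in knockdown, against 44.5 and 31.0 CPM in control (log2 fold change 1.21, adjusted p = 0.00494). NNMT, the nicotinamide methyltransferase, had 221 and 203 CPM in knockdown, against 70.7 and 126 CPM in control (log2 fold change 1.11, adjusted p = 0.00491). RDH16, a retinol dehydrogenase, and TPMT, the thiopurine methyltransferase, were lower at log2 fold changes of -1.94 and -1.94 (adjusted p = 0.0185 and 0.0335).

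Of 19 tested genes for phase I cytochrome P450 enzymes and their redox partners, 1 was higher and 3 were lower (median -0.05). CYP4V2, a fatty acid hydroxylase, had 12.1 and 11.4 CPM in knockdown, against 5.30 and 5.57 CPM in control (log2 fold change 1.11, adjusted p = 0.0205). CYP1B1, which oxidises estrogens and aromatic hydrocarbons, had 0.397 and 0.757 CPM in knockdown, against 7.96 and 7.05 CPM in control (log2 fold change -3.67, adjusted p = 0.000206). CYP4F2, a vitamin K and fatty acid hydroxylase, was lower by a log2 fold change of -1.47 (adjusted p = 0.000671). Of 9 tested genes for cofactor supply, none was higher and 2 were lower (median -0.03). GCLC, the catalytic subunit of the first step of glutathione synthesis, had a log2 fold change of -0.78 (adjusted p = 0.0124), and SLC35D1, a UDP-glucuronic acid transporter, one of -0.76 (adjusted p = 0.00705).

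Of 6 tested exporters of conjugates, 2 were higher and 1 was lower (median -0.27). ABCC2, the canalicular exporter of glucuronides and glutathione conjugates, had 1427 and 1649 CPM in knockdown, against 666 and 873 CPM in control (log2 fold change 1.00, adjusted p = 0.00135). ABCC6 had a log2 fold change of 0.82 (adjusted p = 0.00330), and ABCC1, an exporter of glutathione conjugates, one of -0.64 (adjusted p = 0.0125). Of 23 tested NRF2 target genes outside the members, 5 were higher and 2 were lower (median 0.22). ABCC2, given above, was among the higher genes. So were NQO1, TALDO1 and FTL, the ferritin light chain, with log2 fold changes of 0.70, 0.64 and 0.57 (adjusted p = 0.0297, 0.0139 and 0.0456). GCLC and FTH1, the ferritin heavy chain (log2 fold change -0.46, adjusted p = 0.0499), were the lower ones.

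Of 14 tested regulators of detoxification genes, 2 were higher and 1 was lower (median 0.45). FOXA1, a hepatocyte pioneer factor, had 78.4 and 163 CPM in knockdown, against 42.4 and 47.5 CPM in control (log2 fold change 1.43, adjusted p = 0.00312). NR1H4, the bile acid receptor, had 11 and 18 counts in knockdown, against 0 and 2 counts in control (adjusted p = 0.0428). NR1H4 passed the filter only through its knockdown libraries. The NR1H4 knockdown over control ratio was 14.4 (exact 95% interval from counting 3.64 to 124). MAFK, a small MAF partner of NRF2, had 392.3 and 290 CPM in knockdown, against 888 and 1009 CPM in control (log2 fold change -1.47, adjusted p = 0.000126).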

How the data were processed

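Poly(A) RNA of 2 USP22 knockdown and 2 control libraries was made into libraries with the NEBNext Ultra kit, per the labels' protocols. Per the submitters' processing notes, bcl2fastq, HISAT2 2.1.0, HTSeq and build hg19 were used, without their roles or counting settings. The authors deposited whole-number read counts for 14540 RefSeq mRNA rows, with log2 fold changes, p-values and q-values, whose tool the labels do not name. A gene is the row with most counts, and rows of genes with many isoforms hold few counts. Counts were tested with edgeR 4.0.16 (R 4.3.3): filterByExpr with a minimum count of 10, TMM factors between 0.9788 and 1.015, a quasi-likelihood test of knockdown against control over 12337 transcripts, Benjamini-Hochberg adjustment and a threshold of 0.05. Standard errors are the size of the log2 fold change divided by the root of F. The script was tested on simulated data. Depths were 15027209 to 17194929 counts, and 1 count was 0.0582 to 0.0661 CPM. The common biological coefficient of variation was 22.1%.

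Named genes were USP22, every called member, the 3 members of highest mean CPM in each family, and, per neighbouring list, the 2 called genes with the largest change in each direction. A gene that this rule names is not reported here. Any further gene was named once its values were known, and the text marks the members among them. The cell type markers and the extra rows of EPHX1 and FMO5 were picked in the same way. Members and lists were chosen with earlier results of these data known. Windows of 100 bases were compared between transcripts of GENCODE release 29. Promoters are from RefSeq, GRCh38.p14, and no coordinate was converted from hg19. Alternatives were DESeq2 1.42.0 as a test and its size factors, no filter, rows summed per gene, a threshold of 0.01, a replicate block, and leaving out each library. The kit is not stated to keep strand, so overlapping antisense transcripts cannot be told apart.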

Additional observations from a re-analysis of the deposited data

How the results depend on the processing

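Members called higher numbered 17, and 13 to 18 over the 10 alternatives, with 14 to 17 when 1 library was left out. No called member changed direction in any of them. EPHX4, the 1 member called lower, lost its call without a filter, with DESeq2 and at an adjusted p under 0.01 (0 members lower in each), and the count ran from 0 to 2 with 1 library left out. DESeq2 also lost AKR1C4. All transcripts called higher numbered 1047 (433 at an adjusted p under 0.01, and 685 to 1340 with 1 library left out), and those called lower 1257 (686 at an adjusted p under 0.01, and 1020 to 1297 with 1 library left out). Among the uncalled members named by the rule, the log2 fold change turned sign for AKR1C2, EPHX1, FMO4 and SULT1C4. With 1 library left out it ran from -0.030 (without knockdown 2) to 1.00 (without knockdown 1) for AKR1C2. For EPHX1 it ran from -0.23 (without control 1) to 0.48 (without control 2). For FMO4 it ran from -0.12 (without control 1) to 0.25 (without control 2). For SULT1C4 it ran from -0.54 (without control 1) to 0.45 (without control 2). EPHX1 also stood at -0.04 without knockdown 2, FMO4 at -0.06 without knockdown 1, and SULT1C4 at 0.03 without knockdown 2. CES3 stood at -0.07 without control 1. New calls were GSTM4 without a filter, GSTA2 without control 1, UGT1A6 without control 2, and AKR1C2 (higher), AKR7A2 and FMO5 (both lower) without knockdown 1. The cause was not tested.

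The labels number the libraries 1 and 2 in both groups but do not say that a number pairs them. Over the 12337 tested transcripts, the difference between libraries 1 and 2 in control and that in knockdown had a correlation of 0.136. With a replicate block, 18 members were higher and 4 lower, with AKR7A2, FMO5 and GSTM3 added to EPHX4, and over all transcripts 1672 were higher and 1859 lower. A lone library left in a group was assumed to vary like the other group. Members that did not reach about 10 counts in each of at least 2 libraries were removed by the filter and not tested.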
